A study of Homo sapiens with 121 samples.

Results

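Polycomb repressive complex 2 (PRC2) methylates lysine 27 of histone H3 and keeps developmental regulators silent in embryonic stem cells. Its catalytic subunit is EZH2 or EZH1, which are alternatives in the complex and work only when bound to EED, a reader of the methyl mark, and SUZ12, the scaffold. RBBP4 and RBBP7 are histone chaperones that also serve other chromatin complexes, and accessory proteins join in one of 2 alternative sets, the Polycomb-like proteins MTF2 and PHF19 or the pair JARID2 and AEBP2, which help to bring the complex to its targets. These 10 genes were taken by name from the 25610 genes read, and all 10 were present and above TPM 1 in some cells. TPM is the level of a gene's transcripts, corrected for their length, as a part of a fixed total for the cell.

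The cells were 121 single human embryonic stem cells (hESCs) of the established line WA26, kept undifferentiated in feeder-free culture, untreated and without any genetic change named. From each cell the polyadenylated RNA was made into a full-length Smart-seq2 library, and the telomeres were measured in the DNA of that same cell. The labels sort the cells into 3 telomere groups of 81 long, 25 medium and 15 short telomere cells. No culture, plate or day is named for any cell, so each group counts as 1 sample here, no test between groups was possible, and all spreads below are SD across cells. The telomere ratio of the single cells was not used here. The hESC label held against its markers: POU5F1 was above TPM 1 in 121 cells, NANOG in 116 and SOX2 in 113. Among the early lineage markers examined, GATA6 and HAND1 were above TPM 1 in 0 cells, SOX17 and T in 1 each, EOMES in 2 and GATA4 in 5. PAX6 was the exception, above TPM 1 in 33 cells at a mean of 3.63 TPM. Of 7 fibroblast markers COL1A2 was above TPM 1 in 77 cells at a mean of 10.2 TPM while the other 6 had means of at most 0.68 TPM.

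The number of genes above TPM 1, called detected genes from here on, ran from 2030 to 11515 per cell and differed between the groups, with group means of 8296 (long), 7979.6 (medium) and 5784 (short). A limit of 8000 detected genes, with the nearest cells at 7686 and 8064, gave 68 gene-rich cells (51 long, 14 medium, 3 short) and 53 gene-poor cells (30 long, 11 medium, 12 short). The comparison of long with short cells below is therefore given in all cells and again within these sets. TPM keeps no read depth, so the depth behind each value is unknown.

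The start sites of the 3 core subunits are shown because EZH2 and SUZ12 are the members with the highest correlation with genes of DNA replication in the gene-rich cells, though not in all cells, as described below, while EED stands as the core subunit without the motif. Each window is 300 bases of RefSeq sequence (GRCh38.p14), from 250 bases before to 50 bases after an annotated start, read 5′ to 3′ on the strand of the gene. Capitals mark an 8-base E2F-like motif, written as TTTCCCGC, TTTCGCGC, TTTGCCGC or TTTGGCGC and searched on both strands. E2F factors are known as regulators of genes for entry into S phase.
EZH2: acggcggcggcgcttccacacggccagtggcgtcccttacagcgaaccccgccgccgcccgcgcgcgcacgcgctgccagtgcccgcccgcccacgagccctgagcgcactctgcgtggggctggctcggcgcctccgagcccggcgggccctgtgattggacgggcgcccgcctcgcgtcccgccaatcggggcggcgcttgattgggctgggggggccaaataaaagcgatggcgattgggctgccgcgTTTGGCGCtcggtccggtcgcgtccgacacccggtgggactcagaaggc
SUZ12: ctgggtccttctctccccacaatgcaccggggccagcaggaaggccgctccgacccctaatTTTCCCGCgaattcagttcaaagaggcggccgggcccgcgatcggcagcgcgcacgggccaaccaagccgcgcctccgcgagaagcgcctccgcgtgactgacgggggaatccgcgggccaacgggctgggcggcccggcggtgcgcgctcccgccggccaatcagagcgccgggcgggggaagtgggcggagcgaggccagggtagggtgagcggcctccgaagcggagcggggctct
EED: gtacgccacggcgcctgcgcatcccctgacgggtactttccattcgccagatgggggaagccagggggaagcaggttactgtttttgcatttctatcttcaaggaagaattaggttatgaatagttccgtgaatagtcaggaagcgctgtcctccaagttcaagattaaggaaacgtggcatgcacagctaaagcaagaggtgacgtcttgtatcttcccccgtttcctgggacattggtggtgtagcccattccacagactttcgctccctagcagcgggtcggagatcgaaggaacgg

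The EZH2 window (chr7:148884242-148884541, minus strand) holds TTTGGCGC beginning 1 base after the annotated start, and a second annotated EZH2 start has no match. In SUZ12 (chr17:31936757-31937056, plus strand) TTTCCCGC begins 189 bases before the start. The EED window (chr11:86244503-86244802, plus strand) has no match and holds 16 CG dinucleotides, against 46 in EZH2, 40 in SUZ12 and a median of 14 over all windows. Windows of EZH1, MTF2, AEBP2 and the second start of PHF19 also hold a match, so that 6 of the 10 genes have one in at least 1 window and RBBP4, RBBP7, JARID2 and EED have none. For comparison, 3.31% of 35116 windows and 3.99% of 27305 genes hold the motif, as do 11 of 16 genes of the G1/S list used below and 1 of 12 genes of the G2/M list. In the lists of PRC1 genes and of other histone methyltransferases, also used below, 0 of 19 and 0 of 13 genes hold it. A match describes these letters only and says nothing of binding. In gene-rich cells the genes with a match had these Pearson r with the G1/S score defined below: EZH2 0.462, SUZ12 0.337, EZH1 0.192, AEBP2 0.164, MTF2 0.124 and PHF19 -0.169. Those without a match had 0.182 (EED), 0.032 (RBBP4), -0.051 (RBBP7) and -0.143 (JARID2). Whether the motif has a part in these correlations was not tested.

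EZH2, the main methyltransferase of dividing cells, lies on the minus strand of chromosome 7 (148504349 to 148581413, GRCh37). Its lowest, median and highest levels were 0, 52.2 and 193 TPM for long telomeres, 0, 45.7 and 148 TPM for medium ones, and 0, 26.4 and 719.5 TPM for short ones. The groups overlap, and the short cells lie at both ends: 3 of the 4 highest EZH2 values of all 121 cells were in gene-poor short telomere cells, at 719.5, 329 and 178 TPM, and 4 other short cells were listed at 0. EZH1 is the paralogue known from resting and differentiated cells (chromosome 17, 40852293 to 40897067). It had medians of 1.59, 0.67 and 0 TPM in long, medium and short cells and a single high value of 187 TPM, in a long telomere cell with 4366 detected genes.

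By TPM, EZH2 thus made up most of the catalytic subunit transcripts. In the 108 cells with a summed level of both paralogues above TPM 1, EZH2 made up a median of 97.5% of the sum, with group medians of 96.9% (long), 97.9% (medium) and 100% (short). The median was 95.9% in gene-rich and 100% in gene-poor cells. On the log2(TPM + 1) scale EZH2 exceeded EZH1 by 3.65 ± 2.56 (SD, n = 121 cells), and was higher in 109 of 121 cells. Of the 5 cells in which EZH1 held the larger part, 3 were long and 2 were short telomere cells, and 3 cells of the series had EZH1 above TPM 1 without EZH2.

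By mean log2(TPM + 1) over all cells both other core subunits were lower than EZH2. EZH2 was above EED in 89 and above SUZ12 in 97 of 121 cells, but in 5 and 8 of the 15 short cells. EED (chromosome 11, 85912254 to 85989855) had medians of 17.2, 13.7 and 0.29 TPM in long, medium and short telomere cells, and its highest value, 295 TPM, was in a short telomere cell. SUZ12 (chromosome 17, 30264026 to 30328057) had medians of 16.4, 18.3 and 10.7 TPM, and its highest value, 246 TPM, was in a long telomere cell. Neither gene separated the groups: 4 of 15 short cells were above the long median for EED and 5 of 15 for SUZ12. SUZ12 has a pseudogene, SUZ12P1, that is listed with a mean of 10.8 TPM, and the annotation also holds EZH2P1, EEDP1 and 7 pseudogenes of RBBP4, so short reads could be shared among these copies.

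Among the chaperones, RBBP4 (chromosome 1, 33116743 to 33151812) was the member read most evenly. It was above TPM 1 in 118 of 121 cells, with medians of 67.7 TPM in long, 55.3 TPM in medium and 15.5 TPM in short cells. RBBP7 (chromosome X, 16857406 to 16888485) had medians of 87.7, 105 and 6.93 TPM and was listed at 0 in 5 of the 15 short cells, although another short cell had its highest value of all, 263 TPM. The low short median of RBBP7 therefore came with a wide spread, and the groups overlapped.

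The Polycomb-like proteins read methylated lysine 36 and CG-rich DNA. MTF2 (chromosome 1, 93544792 to 93604636) ran from 0 through a median of 46.8 to 539 TPM in long cells, from 0.18 through 58.8 to 155 TPM in medium cells and from 0 through 0.95 to 96.8 TPM in short cells. It was above TPM 1 in 76 of 81 long and 24 of 25 medium cells but in 7 of 15 short cells, so that the short group held most of its low values. PHF19 (chromosome 9, 123617929 to 123657174) had medians of 9.59, 9.60 and 0 TPM. It did not exceed 18.7 TPM in any short cell, against 240 TPM in the highest long and 222 TPM in the highest medium cell. Both of these cells were gene-poor, with 5428 and 4189 detected genes. The highest of 15, 81 and 25 cells are not like for like.

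Of the other accessory pair, JARID2 is a catalytically inactive relative of the Jumonji demethylases that binds nucleosomes, and AEBP2 is a zinc finger protein. JARID2 (chromosome 6, 15246300 to 15522273) had medians of 55.2, 62.6 and 21.7 TPM and was above TPM 1 in 117 of 121 cells. AEBP2 (chromosome 12, 19556979 to 19873735) had medians of 8.19, 10.64 and 0 TPM and was above TPM 1 in 4 of 15 short cells. The highest short cell had 89.4 TPM for JARID2 and 18.9 TPM for AEBP2, against 217 and 91.0 TPM in the highest long cell. These are the highest of 15 and of 81 cells, so they are not like for like.

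**Figure D1:**
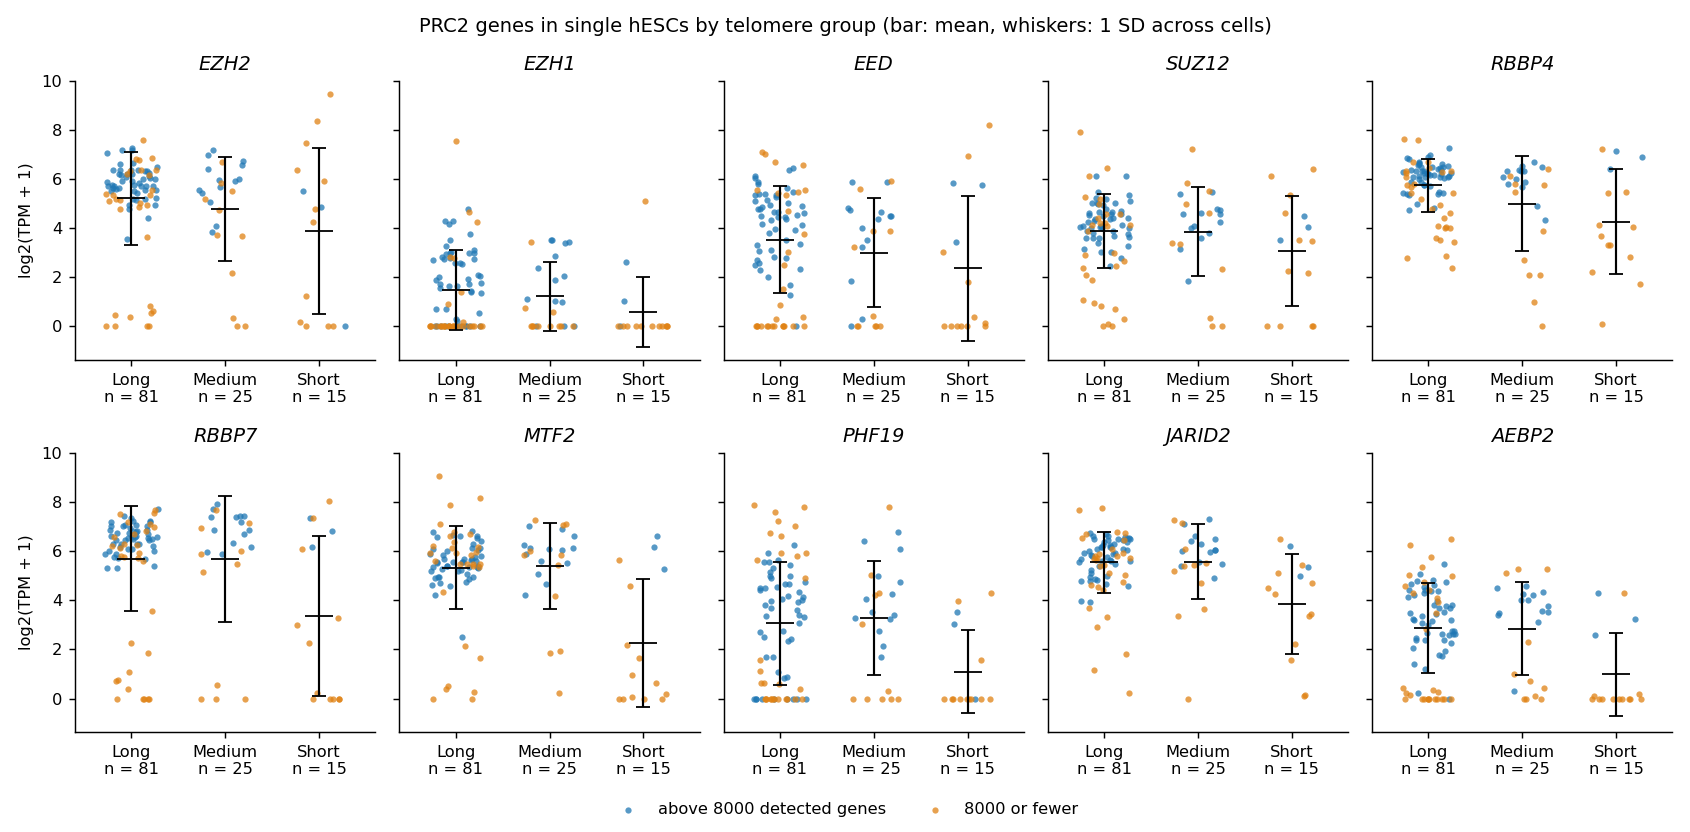
Levels of the 10 PRC2 genes, as log2(TPM + 1), in each cell of the long, medium and short telomere groups. Each point is 1 cell, blue for cells above 8000 detected genes and orange for the others, with the mean as a bar and 1 SD across cells as whiskers. Most cells at 0 are orange, and the short telomere group holds 12 orange and 3 blue cells.

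By mean level across all cells, the order on the per-length log2(TPM + 1) scale was RBBP4 (5.42), RBBP7 (5.41), JARID2 (5.35), EZH2 (4.97), MTF2 (4.97), SUZ12 (3.78), EED (3.28), PHF19 (2.86), AEBP2 (2.64) and EZH1 (1.31). No neighbours in this order differed by more than the SD of their difference across the 121 cells. In the 68 gene-rich cells, where more members were detected in each cell, 1 step did: MTF2 stood 1.37 ± 1.02 above SUZ12 and was higher in 91.2% of cells. The order thus has an upper set of RBBP4, RBBP7, JARID2, EZH2 and MTF2 and a lower set of SUZ12, EED, PHF19, AEBP2 and EZH1. Within the gene-rich cells RBBP4 varied least, with a coefficient of variation of 0.361 in TPM, and EZH1 and PHF19 varied most, at 1.19 and 1.16.

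The first comparison asks whether the complex differs between long and short telomere cells. All 10 members had a higher mean in long cells. So had 79.2% of the 13439 genes averaging TPM 1 or more and 90.9% of the 6213 averaging TPM 10 or more. Of the 10 members, 8 were higher by at least 2-fold, that is by 1 on the log2(TPM + 1) scale. Past this limit were 38.9% of the 13439 genes averaging TPM 1 or more (3.75% were lower by as much), and 66.5% of the 6213 genes averaging TPM 10 or more, a level that 9 of the 10 members reach. The members' median difference was 1.59, against medians of 0.70 and 1.40 over these same gene sets. The members as a group were thus near other genes of their level. The direction of EZH2 and EED depended on the scale. By mean TPM without a logarithm EZH2 was at 57.0 in long and 99.3 in short cells, and EED at 25.3 and 36.5, both higher in short cells, whereas the other 8 members were higher in long cells on both scales.

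Single members spread widely around that median. MTF2 differed most, with 5.33 ± 1.69 (SD, n = 81) in long and 2.27 ± 2.60 (n = 15) in short cells, a difference of 3.06 that is larger than the SD of either group. Of the 6213 genes, 150 differed by more than MTF2. AEBP2 was the other member whose difference, 1.89, exceeded both SDs (2.88 ± 1.82 and 0.99 ± 1.69).

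RBBP7 followed with 5.70 ± 2.13 and 3.38 ± 3.26, a difference of 2.33, and PHF19 differed by 1.97, JARID2 by 1.69 and RBBP4 by 1.50. The core subunits were at the low end, with EZH2 at 1.32, EED at 1.17, EZH1 at 0.89 and SUZ12 at 0.81, and for EZH2, EED and SUZ12 the long cell was the higher one in 61.5% to 63.0% of all long and short pairings. The same share was 80.2% for MTF2, 78.5% for JARID2 and 77.8% for AEBP2. EZH2 depended on a few cells: without the 2 short cells with the highest EZH2 its difference was 2.09, and among cells with EZH2 above TPM 1 it was 0.00. Without the 4 short cells below 4000 detected genes 6 of 10 members were past 2-fold (29.1% of genes averaging TPM 1 or more, 51.8% of those averaging TPM 10 or more). RBBP4 was then at 0.67, EED at 0.35 and RBBP7 at 1.12, and MTF2, the highest, at 2.30.

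The groups also differed by 2512 detected genes on average, so the comparison was repeated in narrower sets. In gene-poor cells 6 of 10 members were higher in long cells by at least 2-fold (26.4% of genes averaging TPM 1 or more, 51% of those averaging TPM 10 or more), with a median of 1.58 and 823 more detected genes in long cells. When each short cell was set against the 3 long cells nearest in detected genes, a gap of 333 detected genes was left and 4 of 10 members were past 2-fold (17.7% and 34.6% of genes), with a median of 0.68 against 0.63 over the 6213 genes. The 45 long entries came from 25 distinct cells. The 4 short cells below 4000 detected genes had no real match, as the lowest long cell had 4002. All 4 were set against the same 3 long cells.

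The 4 of 10 members past 2-fold with this match, beside 34.6% of genes averaging TPM 10 or more, were the accessory proteins. In this matched set MTF2 differed by 2.66, AEBP2 by 2.04, PHF19 by 1.48 and JARID2 by 1.41, whereas EZH2 differed by 0.30, EZH1 by 0.16, SUZ12 by 0.00, RBBP4 by 0.73 and RBBP7 by 0.63, and EED was lower in long cells (-0.76). Of the 6213 genes, 153 differed by more than MTF2, 520 by more than AEBP2, 1206 by more than PHF19 and 1342 by more than JARID2. MTF2 or PHF19 was above TPM 1 in 27 of 30 gene-poor long cells, 10 of 11 gene-poor medium cells and 5 of 12 gene-poor short cells. The 4 short cells below 4000 detected genes had neither, and no long or medium cell was as low (lowest 4002 and 4189). Detection of other genes of this level was not compared, so the count is not a trait of these 2 genes alone.

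The gene-rich cells gave another picture, although only 3 of them are short telomere cells. MTF2 was at 72.1, 37.8 and 96.8 TPM in these 3 cells, within the long range, and the long minus short difference was -0.48, with -0.14 for AEBP2 and -0.26 for RBBP7. RBBP4 was at 120, 86.0 and 143 TPM and EED at 56.5, 53.7 and 9.82 TPM, with differences of -0.69 and -0.81. EZH2 (2.42) and PHF19 (1.02) were higher in long cells by at least 2-fold (11.4% of genes averaging TPM 1 or more, 12.7% of those averaging TPM 10 or more).

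Both of those values rest on 1 short cell, without which they were 0.68 and -0.07. Leaving it out also moved EED to -1.60, EZH1 to 1.34 and RBBP7 to -0.56. The 3 gene-rich short cells had 28.1, 45.5 and 0 TPM of EZH2, all below the long median of 52.2 TPM, and the cell at 0 had EZH1 at 5.14 TPM, SUZ12 at 10.7 TPM, EED at 9.82 TPM and 8210 detected genes. It was the only gene-rich cell listed without EZH2. How far the number of detected genes sets the differences of the single members was not tested beyond these sets.

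**Figure D2:**
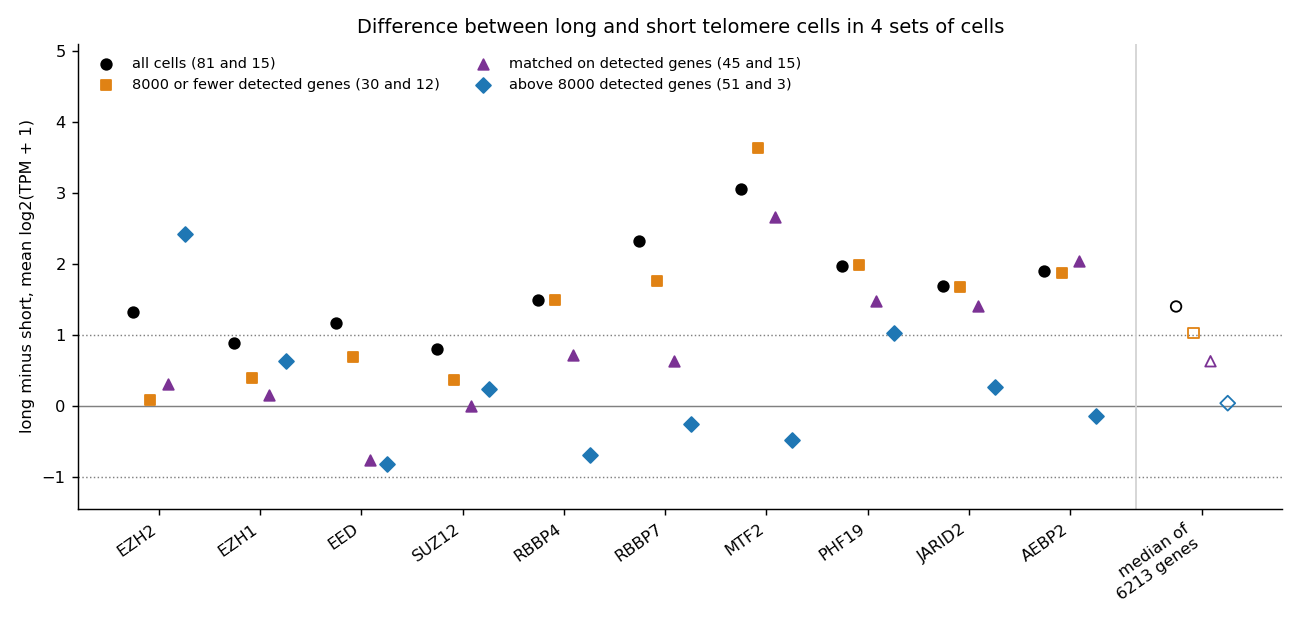
Long minus short difference in mean log2(TPM + 1) for each PRC2 gene in all cells, gene-poor cells, long cells matched to short cells on detected genes, and gene-rich cells, with the cell numbers in the key. Open symbols at the right give the median of 6213 genes averaging TPM 10 or more, and dotted lines mark 2-fold. MTF2 was past 2-fold in 3 of the 4 sets and at -0.48 in gene-rich cells.

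Medium telomere cells stood close to long ones. Between medium and short cells, which are the same 15 short cells as above, 5 of 10 members were past 2-fold (33.8% of genes averaging TPM 1 or more, 59.9% of those averaging TPM 10 or more), namely MTF2 (3.14), RBBP7 (2.32), PHF19 (2.19), AEBP2 (1.87) and JARID2 (1.72). The median was 1.30 against 1.23 over the 6213 genes. With medium cells matched on detected genes 3 of 10 were past 2-fold (17.3% and 32.7% of genes), MTF2 by 2.51, PHF19 by 1.83 and JARID2 by 1.11, while EZH2 (-0.70), EED (-0.66) and RBBP4 (-0.78) were lower in medium cells.

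In gene-rich cells EZH2 and PHF19 were higher in medium than in short cells by at least 2-fold (11.3% of genes) and EED was lower by as much (11.6% of genes), but without the short cell listed at 0 for EZH2 EZH2 was at 0.63, PHF19 at 0.82, EED at -2.07 and EZH1 at 1.35. In gene-poor cells MTF2 (3.48), RBBP7 (1.56), AEBP2 (1.45), JARID2 (1.45) and PHF19 (1.43) differed most between medium and short cells, and EZH2 was at -0.56. Between long and medium cells 0 of 10 members were past 2-fold, as were 0.893% of genes in the upward and 0.387% in the downward direction. The largest of these member differences were RBBP4 at 0.75, EED at 0.53 and EZH2 at 0.44, and MTF2 was at -0.08. The median was 0.02, against 0.10 over the 13439 genes. Within the sets RBBP4 differed by 1.35 in gene-poor and 0.16 in gene-rich cells, and PHF19 by 0.56 and -0.89.

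Whether a cell is read with a full set of subunits was examined next. EZH2, EED and SUZ12, the minimal active core, were all above TPM 1 in 61 of 81 long cells (75.3%, exact 95% interval 64.5% to 84.2%), 15 of 25 medium cells (60.0%, 38.7% to 78.9%) and 5 of 15 short cells (33.3%, 11.8% to 61.6%). The intervals treat cells as independent draws and cover counting error only. Among gene-rich cells the core was complete in 50 of 51 long, 12 of 14 medium and 2 of 3 short cells, and among gene-poor cells in 11 of 30 long, 3 of 11 medium and 3 of 12 short cells.

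Thus within either set the groups lay closer together than in all cells. The 4 gene-rich cells with an incomplete core lacked EED in 3 cases and EZH2 in 1, and SUZ12 was above TPM 1 in all 68. All 10 members were detected together in 38 of 68 gene-rich and 1 of 53 gene-poor cells. Long cells had a median of 9 members detected (range 4 to 10), medium cells 9 (3 to 10) and short cells 6 (1 to 10). The 4 cells below 4000 detected genes were all short telomere cells and had 1 to 3 members detected.

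**Figure D3:**
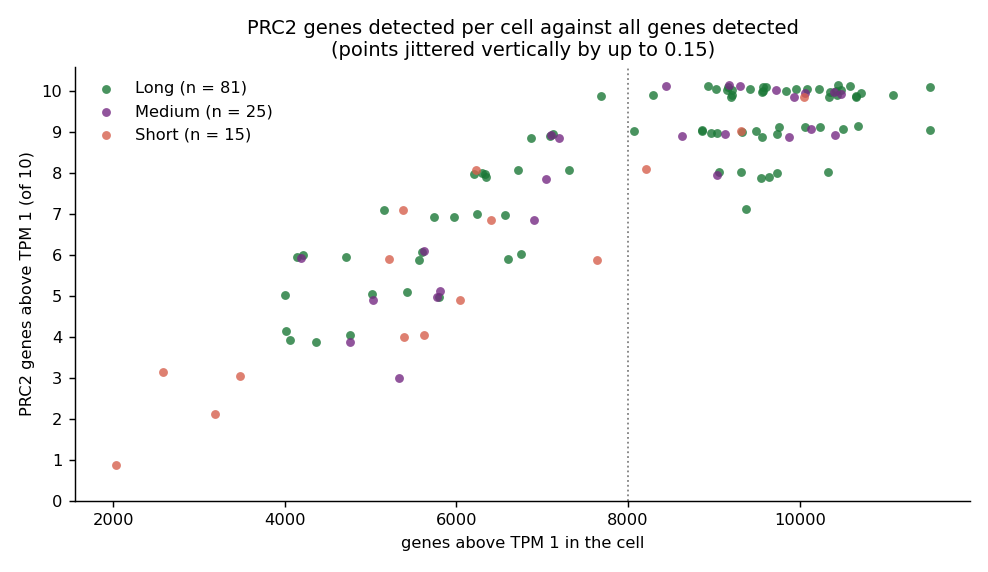
Number of PRC2 genes above TPM 1, of 10, against the number of all genes above TPM 1 in each of the 121 cells, coloured by telomere group. The count climbs with detected genes up to the dotted line at 8000, and the 68 cells beyond it had 7 to 10 members.

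Whether the members were read in step, cell by cell, was examined by pairwise correlations. Across all 121 cells the 45 pairs had a median Pearson r of 0.258, against 0.181 over all pairs of the 6213 genes. Above 0 were 45 of 45 pairs, with the highest value for RBBP4 and RBBP7 (0.57). Each member also went with the number of detected genes, from 0.313 for PHF19 to 0.653 for RBBP7, with a median of 0.473 against 0.422 over the 6213 genes, and all points of a cell share its library. In the 68 gene-rich cells the median r of the pairs was 0.052, against 0.015 over all pairs of genes of that level. There 32 of 45 pairs were above 0. The share of pairs above 0 over all genes was not taken for either set of cells.

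No pair of PRC2 genes was closely tied in those cells. The highest were RBBP4 with AEBP2 (0.35), SUZ12 with RBBP7 (0.32) and RBBP7 with AEBP2 (0.29). Core subunits reached 0.27 for EED with SUZ12, 0.23 for EZH2 with SUZ12 and 0.03 for EZH2 with EED. The alternatives EZH2 and EZH1 were at 0.01, and MTF2 with PHF19 at -0.11. The lowest pair was EZH1 with SUZ12 (-0.21).

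**Figure D4:**
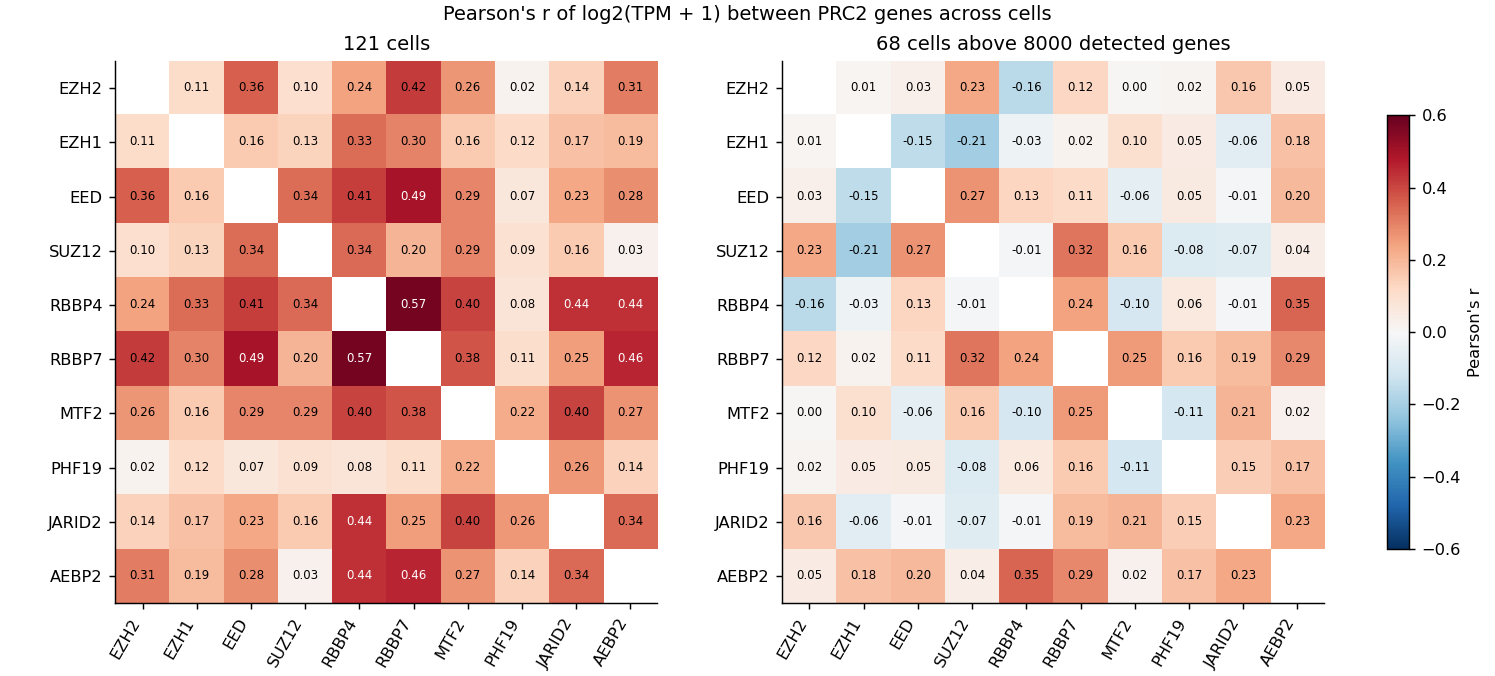
Pearson's r of log2(TPM + 1) between the 10 PRC2 genes across 121 cells (left) and across the 68 cells above 8000 detected genes (right), written in each square and coloured from -0.6 to 0.6. All squares on the left are above 0, with a median of 0.258, and those on the right have a median of 0.052. Over all pairs of genes averaging TPM 10 or more the medians were 0.181 and 0.015.

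In the gene-rich cells EZH2 instead varied with the cell cycle genes. A G1/S score, the mean log2(TPM + 1) of 19 genes of DNA replication and S-phase entry such as PCNA and the MCM helicase, and a G2/M score of 15 mitotic genes such as CCNB1 and CDK1 were compared with each member in the gene-rich cells. The scores themselves had an r of -0.458 with each other there. EZH2 had an r of 0.462 and a rho of 0.572 with the G1/S score (n = 68 cells), and 6 of 6189 other genes had a higher r, around a median of 0.026.

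With the G2/M score EZH2 had an r of -0.330 and a rho of -0.397, and 34 of 6191 other genes had a lower r. Leaving out the cell without EZH2 gave 0.546 and -0.284, and the 51 gene-rich long cells alone gave 0.522 and -0.291, so the pattern was present within 1 telomere group. By single genes, 18 of 19 G1/S genes had a positive r with EZH2 in the 67 cells with EZH2, led by PCNA (0.56), MCM2 (0.49) and MCM4 (0.41), with SLBP at -0.14. All 15 G2/M genes had a negative r, lowest for CCNB1 (-0.36) and TPX2 (-0.34).

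SUZ12 came next among the members, with an r of 0.337 with the G1/S score and -0.158 with the G2/M score. In the 51 gene-rich long cells these were 0.465 and -0.226, and the 68 cells gave 0.206 once the 2 with the most extreme G1/S scores were left out, where EZH1 had 0.243. This order was not seen in the other sets. In all 121 cells, where the G1/S score itself had an r of 0.607 with detected genes, RBBP7 (0.553), RBBP4 (0.470) and EED (0.462) were above EZH2 (0.457) and SUZ12 (0.305), and in gene-poor cells RBBP7 (0.409) and EED (0.348) were above both. In the 68 cells EED had 0.182 and -0.071, and JARID2 went the other way with -0.143 and 0.255. With the G1/S score RBBP7 had -0.051, RBBP4 0.032 and MTF2 0.124, EZH1 and AEBP2 had 0.192 and 0.164, and PHF19 had -0.169. In gene-poor cells both of the EZH2 correlations were positive, 0.281 and 0.203, as were those of both scores with each other (0.497).

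**Figure D5:**
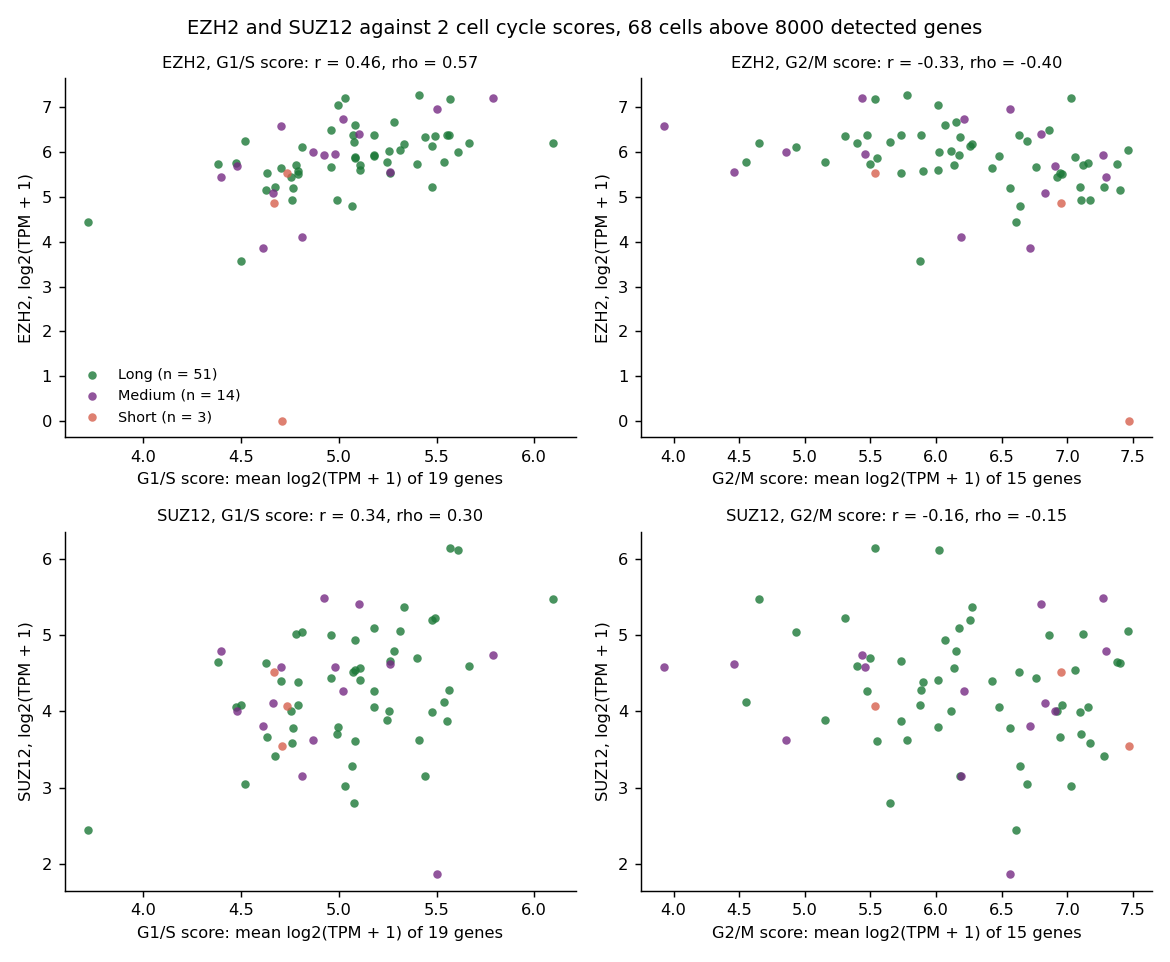
EZH2 (top) and SUZ12 (bottom) as log2(TPM + 1) against the G1/S score (left) and the G2/M score (right) in the 68 gene-rich cells, coloured by telomere group, with r and rho over all points in each title. EZH2 climbs with the G1/S score, and the single point at 0 is the gene-rich short telomere cell without EZH2.

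Among genes averaging TPM 10 or more, the 5 with the highest r with EZH2 across the gene-rich cells were SSBP1 (0.687), MEA1 (0.685), HSP90AB1 (0.683), RNASEK (0.655) and NDUFC2 (0.646). For 4 of them the value depended on the cell without EZH2. In the remaining 67 cells SSBP1 had 0.268, MEA1 0.364, RNASEK 0.232 and NDUFC2 0.118. HSP90AB1, an abundant cytosolic chaperone, stayed at 0.481 there. With the mean of EZH2, EED and SUZ12 the closest genes were DNPH1 (0.530), PCNA (0.491), PAIP2 (0.470), CENPQ (0.469) and SSBP1 (0.458). The cell without EZH2 is part of these values, which were not taken again without it. By rho they were 0.369, 0.547, 0.279, 0.292 and 0.329, so PCNA was the only one not lower by rank.

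The genes around PRC2 were read beside it. Of 5 further accessory genes, LCORL (mean 11.4 TPM) and PHF1 (5.52 TPM) were the most abundant, 0 of 5 were past 2-fold between long and short cells, and CXorf67, a known inhibitor of EZH2, was above TPM 1 in 1 cell. Of the 2 demethylases of H3K27, KDM6A had a mean of 13.8 TPM and was higher in long cells by 2.30 (0.54 in gene-rich cells), while KDM6B was above TPM 1 in 11 cells. PRC1, the complex that ubiquitinates histone H2A, had 11 of 22 genes past 2-fold with a median of 0.96, led in level by PHC1 (64.8 TPM) and in difference by PCGF6 (2.47).

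For other methyltransferases the count was 9 of 18 with a median of 0.88, and for partners of RBBP4 and RBBP7 in other complexes it was 6 of 16 with a median of 0.80. G1/S genes had 13 of 19 and a median of 1.43, G2/M genes 12 of 15 and 1.66, and hESC markers 9 of 12 and 1.81. These counts stand beside the 8 of 10 and 1.59 of the PRC2 genes. The 13439 genes averaging TPM 1 or more had 38.9% and 0.70, and the 6213 averaging TPM 10 or more had 66.5% and 1.40. The second set is nearer in level to the PRC2, G1/S, G2/M and hESC marker lists, whose median genes averaged 40.8, 57.8, 79.3 and 162 TPM. The median gene averaged 4.70 TPM in PRC1, 5.35 TPM in the other methyltransferases and 11.4 TPM in the partners. In gene-rich cells the list medians between long and short cells lay between -0.50 for G2/M genes and 0.40 for the demethylases, with PRC2 at 0.05.

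Silent developmental regulators known as Polycomb targets in stem cells were hardly read. Of 43 such genes 4 averaged TPM 1 or more, and PAX6 (3.63 TPM, 33 cells) and PAX7 (1.62 TPM, 22 cells) were highest. Of the 43, 13 were listed at 0 in every cell, so most of the list was too low to differ by 2-fold on this scale and no count is given. Cells had a median of 2 of them detected in long, 2 in medium and 1 in short groups. EED had an r of -0.474 with the mean level of this list in gene-rich cells (-0.367 without the 2 farthest cells). In gene-poor cells the r was 0.231, and all of these come from values that are mostly 0. EED was singled out here, and the same correlations of the other members and of other genes are not given. No relation between the complex and this list is therefore drawn from EED.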

How the data were processed

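Full-length cDNA libraries of single WA26 cells were made by the Smart-seq2 protocol after the polyadenylated RNA of each cell was held on magnetic beads and its DNA removed. The authors deposited 1 table of TPM values per gene and cell. Their processing notes name TopHat2, RSEM and hg19, while the study's methods describe counting with HTSeq, so the step that made the TPM is not certain. TPM is scaled to a fixed sum within each cell (979828 to 997050 over the genes read), so a gene's value depends on all others and a gene can be missed in a poorly captured cell. The copy used here breaks off after ZFR, later genes were not analysed here, and 25610 genes were read in 121 cells, no pair of which was identical.

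Values were taken as log2(TPM + 1), and a gene was detected above TPM 1. Group means were subtracted, and 2-fold means a difference of at least 1 on that scale, which understates the fold of low genes. With each group counted as 1 sample there is no test. Correlations across cells are descriptions. Matched cells are the 3 nearest in detected genes, with repeats. The members, the gene lists, the limit of 8000 detected genes and the motif were chosen with earlier results of these data known. Besides the 10 members, the text names the 2 most abundant genes and the most different gene of a list, and the 5 genes closest in pattern. Gene positions are from GENCODE on GRCh37, and start site windows from RefSeq on GRCh38.p14, in which all 10 members matched by symbol. Scripts ran in Python 3.11.15 with pandas 2.3.3, numpy 2.4.6 and scipy 1.17.1, figures were drawn with matplotlib 3.10.9, and the calculations were tested on simulated data.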

Additional observations from a re-analysis of the deposited data

How the results depend on the processing

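Between long and short cells 8 members were past 2-fold with a median of 1.59. The count and median were 3 and 0.79 with a pseudocount of 10, 5 and 0.996 with TPM divided by the median ratio over 602 genes, 2 and 0.05 in cells above 8000 detected genes, and 4 and 0.68 when matched on detected genes. The median alone moved to 2.13 with a pseudocount of 0.1 and to 2.63 with group medians. Between medium and short cells, with 5 and 1.30, the values were 9 and 1.83 with a pseudocount of 0.1, 3 and 0.58 with 10, 3 and 0.22 in cells above 8000 detected genes, 3 and 0.51 when matched, and a median of 2.59 with group medians. Between long and medium cells the count went from 0 to 1 in cells with 8000 or fewer detected genes. Over all genes averaging TPM 1 or more, the median shift between long and short cells was 0.70 as deposited and ran from 0.20 to 1.36 over these scalings.

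Among differences of at least 2-fold in all cells, signs turned between long and short cells in cells above 8000 detected genes for EED (-0.81), RBBP4 (-0.69), RBBP7 (-0.26), MTF2 (-0.48) and AEBP2 (-0.14), for EED also when matched (-0.76) and among cells with EED detected (-0.55), and between medium and short cells for MTF2 in cells above 8000 detected genes (-0.15). In cells above 8000 detected genes without the short cell listed at 0 for EZH2, the long minus short values were -0.0730 for PHF19, -1.60 for EED, -0.53 for RBBP4, -0.56 for RBBP7, -0.19 for MTF2 and -0.21 for AEBP2, and the medium minus short value of RBBP7 was -0.13. As a log2 ratio of mean TPM, long against short was -0.80 for EZH2 and -0.52 for EED. Among smaller differences between medium and short cells those that turned included EED (-1.28 above 8000 detected genes, -0.66 matched), RBBP4 (-0.85 and -0.78) and EZH2 (-0.56 with 8000 or fewer detected genes, -0.70 matched).

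The complete core was found in 48.1% of long, 40.0% of medium and 26.7% of short cells with a limit of TPM 10, and in 68.0% of medium and 40.0% of short cells with a limit of TPM 0. The shares were 98.0%, 85.7% and 66.7% above 8000 detected genes and 36.7%, 27.3% and 25.0% in the other cells. The median r between members was 0.258 in all cells in place of 0.052. With detected genes it was 0.473, with a rho of 0.370, and an r of 0.156 in cells above the limit of 8000 and 0.303 below it. EZH2 with the G1/S score, at 0.462, had a rho of 0.572 and an r of 0.281 in cells with 8000 or fewer detected genes, and with the G2/M score, at -0.330, it turned to 0.313 in all cells and 0.203 in those cells. The causes were not tested. Leaving out the cell without EZH2 (for scores and for differences), keeping only long cells, keeping only cells with a gene detected, the ratio of mean TPM and leaving out the 2 short cells highest in EZH2 were chosen after seeing the data.

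No paired analysis was possible because the cell numbers only name cells and no result comes from a test. Depth is unknown, and each group is 1 sample of cells, so differences here describe these cells.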
